A study of Mus musculus with 8 samples.

Results

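The detoxifying enzymes of the nose are a group of 8 genes among the 22553 in the deposited table: the cytochrome P450 genes Cyp2g1, Cyp2f2, Cyp2a5, Cyp2a4, Cyp1a2 and Cyp2e1, the aldehyde dehydrogenase gene Aldh1a7 and the carboxylesterase gene Ces1d. The genes were chosen by name, with their ribosome footprint and RNA counts in these samples already known. Their levels and ratios are therefore given as a description, with no test.

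The olfactory epithelium is held together by sustentacular cells, tall supporting cells whose apical ends face the inhaled air. These cells, together with the ducts and acini of Bowman's glands beneath them, are known for an enzyme content that resembles the liver's. Cytochrome P450 enzymes insert oxygen into fat-soluble molecules with electrons from the reductase Por, and esterases and aldehyde dehydrogenases process ester and aldehyde substrates. Conjugating enzymes such as UDP-glucuronosyltransferases, glutathione transferases and sulfotransferases then make the products soluble. Olfactory neurons are not known for high levels of these P450 enzymes.

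Ribosome footprints (the stretches of mRNA protected by ribosomes) and input RNA were measured in cells sorted by green fluorescence from the papain-dissociated main olfactory epithelium of mice. Ngn1-GFP cells, marked by a transgene, are neuronal progenitors and immature olfactory sensory neurons, and OMP-GFP cells, marked by a knock-in at the Omp gene, are mature olfactory sensory neurons. Controls carried 1 or 2 floxed Mex3a alleles and no Cre driver, although their genotype tag lists only the homozygous state. The knockouts (KO) were homozygous for the floxed allele and carried Foxg1iresCre, whose driver gene is active in the forebrain and olfactory placode from early development, so the deletion need not be limited to the sorted cells. The OMP-GFP KO is described as OMP-ires-GFP but tagged OMP-ires-Cre, and it was taken as OMP-GFP by its description. No group received a treatment, and the sources used here give neither age nor sex nor pooling of animals.

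The 8 footprint libraries, 2 in each of 4 groups, are represented by 1 column of footprints and 1 column of RNA per group. No value here has a spread between replicates, and a difference between 2 groups cannot be told apart from a difference between 2 sorts. Brackets hold 95% intervals, which cover counting error only, and reads copied by PCR are not independent molecules. Groups are listed in a fixed order, the Ngn1-GFP control first, then its KO, then the OMP-GFP control followed by its KO. They had footprint totals of 3031489 to 4456989 and RNA totals of 26946592 to 89327877 counts. Ratios are log2 of KO over control after TMM scaling. A gene is called higher or lower where the columns were at least 2-fold apart, the interval excluded no difference and the pair held at least 20 counts. Mex3a itself had 437, 28, 16 and 5 footprints, with log2 ratios of -3.34 in Ngn1-GFP and -1.80 in OMP-GFP cells.

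The enzymes were most abundant in the Ngn1-GFP control, the column labelled as neuronal progenitors and immature neurons. In footprints, 6 of the 7 members with enough counts were called lower in the Ngn1-GFP KO and none higher, where 10.8% of all genes were called lower and 6.5% higher. In OMP-GFP cells the direction was opposite: 5 of the 6 members with enough counts were called higher in the KO and none lower, where 7.12% of all genes were called higher and 8.54% lower. Cyp2e1 had enough counts in both comparisons and was called in neither. The medians of the members were -2.84 in Ngn1-GFP and 1.94 in OMP-GFP cells, and those of all genes were -0.00 and 0.00. Because the members were chosen with these ratios known, the counts describe the choice and support no statement about it. In bulk samples like these, fewer cells of a type and less RNA per cell cannot be told apart.

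RNA had the same arrangement. In the Ngn1-GFP KO, 6 of 8 members were called lower and 1, Cyp2e1, higher, where 11.3% of all genes were called lower and 4.49% higher. In the OMP-GFP KO, all 6 members with enough RNA counts were called higher, where 4.4% of all genes were called higher and 3.89% lower. The members' median RNA ratios were -2.05 and 2.16. Summed over the 8 genes, footprints made up 0.439%, 0.0569%, 0.0114% and 0.0464% of the column, and RNA 0.0881%, 0.0146%, 0.00492% and 0.0234%.

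**Figure D1:**
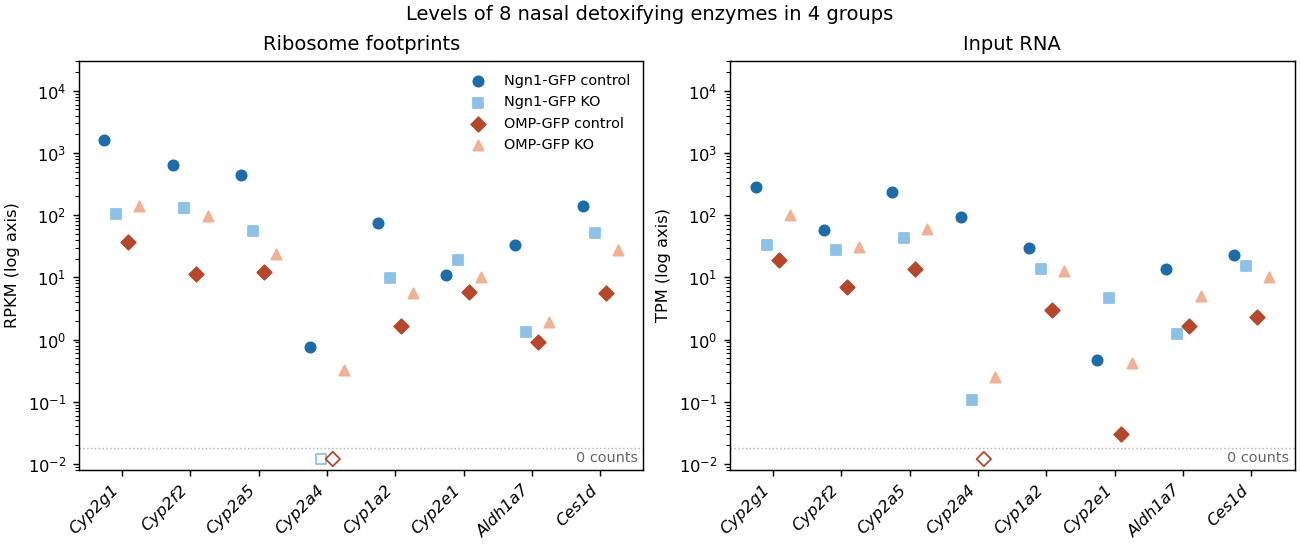
Footprint level in RPKM (left) and RNA level in TPM (right) of each of the 8 enzymes in the 4 groups, on log axes, with 1 point per group and no replicate spread, and open symbols at the foot for 0 counts. Cyp2g1 has the highest footprint level in the Ngn1-GFP control at 1590 RPKM, and all members except Cyp2e1 are highest in that column.

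Cyp2g1, the olfactory-specific P450, had the most footprints of the members in each column except the Ngn1-GFP KO, where Cyp2f2 had more. The gene (ENSMUSG00000049685) lies on chromosome 7 from 26808927 to 26821197 (GRCm38.p6). Its footprints numbered 10521 in the Ngn1-GFP control and 468 in the matching KO, against 200 in OMP-GFP control cells and 867 in OMP-GFP KO cells. On the scale per length these were 1590, 104, 37.7 and 142 RPKM, and the gene ranked 36th by footprint RPKM among all genes in the Ngn1-GFP control. The Ngn1-GFP control was thus the highest column and the OMP-GFP control the lowest, with the KO columns between them. The Ngn1-GFP KO held 14.6-fold fewer scaled footprints than its control (log2 ratio -3.87 [-4.0, -3.73]), and the OMP-GFP KO held 3.99-fold more (2.0 [1.77, 2.23]). RNA counts were 29709, 950, 624 and 2830, or 286, 33.2, 19.0 and 100.1 TPM. The RNA ratios of -3.34 [-3.43, -3.24] and 2.44 [2.31, 2.57] had the same signs as the footprint ratios.

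Cyp2f2, a P450 of the lung's club cells and the nose that acts on small aromatic compounds such as naphthalene, was next by footprint level in the Ngn1-GFP control. It lies on chromosome 7 from 27119955 to 27133660 (ENSMUSG00000052974). Its 4194, 586, 60 and 579 footprints corresponded to 638, 131, 11.4 and 95.7 RPKM. Unlike Cyp2g1, its KO columns were nearly level with each other in footprints, at 586 and 579 counts. The ratios were -2.22 [-2.34, -2.09] in Ngn1-GFP and 3.15 [2.77, 3.56] in OMP-GFP cells, an 8.88-fold difference in the latter and the largest of the members there. RNA counts of 6067, 782, 229 and 853, or 58.7, 27.5, 7.01 and 30.3 TPM, gave ratios of -1.33 [-1.44, -1.22] and 2.16 [1.94, 2.37]. Scgb1a1, the defining secretory protein of club cells, had 0 footprints and 0 RNA counts in every column.

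Cyp2a5 and Cyp2a4 encode near-identical P450 enzymes, of which Cyp2a5 is known as a coumarin and nitrosamine metabolising enzyme of the nose and liver and Cyp2a4 as a steroid hydroxylase. Cyp2a5 (ENSMUSG00000005547) lies on chromosome 7 from 26835339 to 26843264 and Cyp2a4 (ENSMUSG00000074254) from 26307192 to 26315088. Cyp2a5 had 2996, 264, 67 and 152 footprints, or 435, 56.3, 12.1 and 23.98 RPKM. Its footprint ratios were -2.88 [-3.07, -2.70] and 1.06 [0.64, 1.5]. The second stood at 2.09-fold, close to the 2-fold limit, and scaling by library size alone put it at 0.98, where it was no longer called. RNA counts of Cyp2a5 were 25944, 1262, 468 and 1760, or 239.6, 42.4, 13.7 and 59.8 TPM, with ratios of -2.73 [-2.81, -2.65] and 2.17 [2.02, 2.32]. Cyp2a5 RNA in the Ngn1-GFP control was thus near that of Cyp2g1 per length, while its footprints were clearly lower.

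Cyp2a4 had reads in essentially 1 column of 8. Its RNA count was 9557 in the Ngn1-GFP control, or 91.9 TPM, against 3, 0 and 7 in the others. The ratio of KO to control in Ngn1-GFP RNA was -10.01 [-12.29, -8.46]. Its footprints numbered 5, 0, 0 and 2, too few to compare. In the Ngn1-GFP control, Cyp2a4 had 0.00957 scaled footprints per scaled RNA read. Among 9330 genes with at least 1000 RNA counts there, 245 had fewer, and the median was 0.865. As a share of the summed counts of Cyp2a4 and Cyp2a5, Cyp2a4 took 26.9% of RNA in the Ngn1-GFP control and 0.237%, 0% and 0.396% in the other columns, and 0.167% or less of footprints except for 1.30% in the OMP-GFP KO. Reads of near-identical genes can be assigned to either copy, and short footprints and longer RNA reads need not divide in the same way. The treatment of multiply mapping reads was a step not given in the sources used here, so the Cyp2a4 values and the split of the pair are uncertain. With both genes summed, RNA was called lower in the Ngn1-GFP KO. Each gene was called lower by itself, so the sum could not have come out otherwise and does not settle the split.

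The similarity of the pair was visible in the promoters, which are shown because their RNA columns differed so much. In RefSeq (GRCm38.p6), the 249 aligned bases that precede the annotated starts, chr7:26306943-26307191 for Cyp2a4 and chr7:26835089-26835337 for Cyp2a5, both on the plus strand, differed at 4 bases, printed in capitals, and were 98.4% identical.
Cyp2a4: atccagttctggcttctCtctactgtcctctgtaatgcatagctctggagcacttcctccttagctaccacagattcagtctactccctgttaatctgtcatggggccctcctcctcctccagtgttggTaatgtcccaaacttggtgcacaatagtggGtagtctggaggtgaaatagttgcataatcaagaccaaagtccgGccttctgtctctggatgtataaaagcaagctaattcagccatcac
Cyp2a5: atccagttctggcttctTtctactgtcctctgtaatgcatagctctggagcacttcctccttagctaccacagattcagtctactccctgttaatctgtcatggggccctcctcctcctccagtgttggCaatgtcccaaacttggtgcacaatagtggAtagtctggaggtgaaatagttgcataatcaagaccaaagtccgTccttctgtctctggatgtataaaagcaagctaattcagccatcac
The other 14 pairs among the 6 members with a promoter in the RefSeq table were 28.7% to 33.9% identical over the same kind of window.

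Cyp1a2, the classic dioxin- and smoke-inducible P450 of the liver, had lower levels. It lies on chromosome 9 from 57676937 to 57683655 (ENSMUSG00000032310). Its footprints numbered 507, 46, 9 and 36, or 73.8, 9.84, 1.63 and 5.69 RPKM. Both control columns again formed the extremes. Ratios were -2.84 [-3.31, -2.40] in Ngn1-GFP and 1.88 [0.80, 3.12] in OMP-GFP cells, the latter resting on 45 footprints in the pair. RNA counts were 3212, 402, 102 and 376, or 29.7, 13.5, 2.99 and 12.8 TPM, with ratios of -1.37 [-1.52, -1.22] and 2.14 [1.82, 2.47].

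Cyp2e1, the P450 that oxidises ethanol and acetone, stood apart from the other members. It lies on chromosome 7 from 140763819 to 140774990 (ENSMUSG00000025479), far from the cluster that holds Cyp2g1, Cyp2a5, Cyp2a4 and Cyp2f2. Its 72, 86, 31 and 62 footprints, or 10.9, 19.1, 5.85 and 10.2 RPKM, spanned a much narrower range than those of Cyp2g1. The ratios were 0.88 [0.41, 1.35] and 0.88 [0.24, 1.55], higher in both KO columns and short of 2-fold in each. Its RNA counts were few, at 48, 133, 1 and 12, or 0.462, 4.66, 0.0305 and 0.425 TPM, and the highest of the 4 columns was the Ngn1-GFP KO. In Ngn1-GFP cells the RNA ratio of 3.10 [2.61, 3.61] was called higher, opposite to the 6 members called lower. In OMP-GFP cells 13 RNA counts were too few to compare.

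Aldh1a7, a cytosolic aldehyde dehydrogenase closely related to the retinal dehydrogenase Aldh1a1, lies on chromosome 19 from 20692953 to 20727556 (ENSMUSG00000024747). Its footprints numbered 220, 6, 5 and 12, or 32.8, 1.31, 0.928 and 1.94 RPKM. The ratio in Ngn1-GFP cells, -4.57 [-6.04, -3.43], was the lowest footprint ratio of the members and rested on 6 KO footprints. The OMP-GFP pair held 17 footprints and was not compared. RNA counts of 1453, 35, 55 and 143, or 13.8, 1.21, 1.65 and 4.99 TPM, gave ratios of -3.75 [-4.27, -3.26] and 1.64 [1.18, 2.11]. Reads shared with Aldh1a1 could move between the 2 genes.

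Ces1d, a carboxylesterase that hydrolyses esters and stored fat, lies on chromosome 8 from 93166072 to 93197804 (ENSMUSG00000056973). Its 1066, 270, 34 and 192 footprints were 141, 52.5, 5.60 and 27.6 RPKM. In Ngn1-GFP cells it had the smallest footprint difference of the members called lower, at -1.36 [-1.56, -1.16], and its RNA difference of -0.81 [-0.95, -0.67] stayed under 2-fold. In OMP-GFP cells it was 5.20-fold higher in KO footprints (2.38 [1.85, 2.95]) and similarly higher in RNA (2.17 [1.82, 2.53]). RNA counts were 2696, 496, 87 and 327, or 22.7, 15.2, 2.31 and 10.1 TPM.

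**Figure D2:**
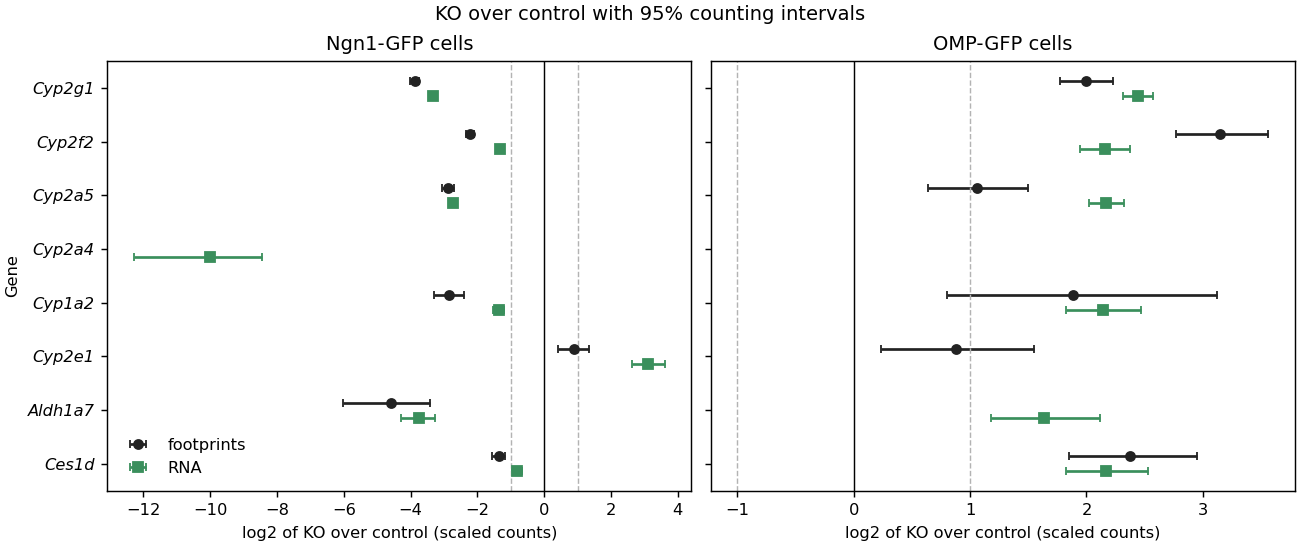
Log2 ratio of KO over control for each enzyme in footprints and in RNA, in Ngn1-GFP and in OMP-GFP cells, with 95% counting intervals as bars and pairs under 20 counts left out. Dashed lines mark 2-fold, and the panels have different horizontal scales. The footprint points of Cyp2g1, Cyp2f2, Cyp2a5, Cyp1a2 and Ces1d lie below 0 in Ngn1-GFP cells (-1.36 to -3.87) and above 0 in OMP-GFP cells (1.06 to 3.15), while Cyp2e1 lies at 0.88 in both.

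The control columns of the 2 populations were then set side by side. This comparison shares each control column with a KO comparison above, so its ratios are not a further observation of those columns. OMP-GFP over Ngn1-GFP footprints were called lower for 6 of 7 members and higher for none, where 17.4% of all genes were called lower and 6.11% higher. The differences of these 6 were large, from 21.7-fold for Ces1d (log2 ratio -4.44 [-4.98, -3.95]) to 48.3-fold for Cyp2f2 (-5.59 [-5.99, -5.23]). Between them lay Cyp2g1 at 36.4-fold (-5.18 [-5.39, -4.98]), Cyp1a2 at 38.9-fold, Cyp2a5 at 30.9-fold and Aldh1a7 at 30.4-fold. Cyp2e1 differed by 1.60-fold (-0.68 [-1.34, -0.06]). In RNA all 8 members were called lower in OMP-GFP cells, where 23.3% of all genes were called lower and 3.49% higher. The call of Cyp2e1 rests on 48 and 1 RNA counts, and at 50 counts in the pair 7 members were called. That of Cyp2a4 rests on the uncertain split of its reads with Cyp2a5. For the 6 members called in footprints the RNA differences were smaller, such as 16.5-fold for Cyp2g1, 9.16-fold for Cyp2f2 and 10.9-fold for Cyp1a2. Cyp2e1 had the larger difference in RNA, at 16.6-fold. Cyp2a4 had 0 RNA counts in the OMP-GFP control, and the end of its counting interval nearest to no difference was a log2 ratio of -9.81.

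Between the KO columns the populations were much closer. Each ratio here follows from the control comparison and the KO ratios above, so it is not a further observation. Of 6 members with enough footprints, 1 was called lower in OMP-GFP cells and none higher, where 18.3% of all genes were called lower and 11.3% higher. That member was Cyp2a5, at -1.01 [-1.30, -0.71], or 2.01-fold and close to the 2-fold limit. Cyp2g1 was 1.60-fold higher in OMP-GFP cells (0.68 [0.52, 0.85]), and Cyp2f2 differed by 1.17-fold (-0.23 [-0.39, -0.06]). Ces1d (-0.70 [-0.98, -0.43]) and Cyp2e1 (-0.68 [-1.18, -0.19]) were lower in OMP-GFP cells. The intervals of Cyp2g1, Cyp2f2, Ces1d and Cyp2e1 excluded no difference, at sizes under 2-fold, and that of Cyp1a2 did not (-0.56 [-1.23, 0.10]). In RNA, Cyp2g1 (1.74 [1.63, 1.84]) and Aldh1a7 (2.19 [1.65, 2.77]) were called higher in OMP-GFP KO cells and Cyp2e1 lower (-3.31 [-4.30, -2.46]), where 4.77% of all genes were called higher and 16.4% lower. The count of members called between populations was thus 6 with the control columns and 1 with the KO columns in footprints, and 8 and 3 in RNA.

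The Ngn1-GFP control also differed from the other columns in genes outside the group. In footprints 56 genes exceeded all remaining columns at least 8-fold there, Cyp2g1 and Aldh1a7 among them, against 15, 0 and 8 in the remaining columns. In RNA the numbers were 376, with Cyp2a4 among them, 10, with Cyp2e1 among them, 1 and 5.

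Footprints per RNA read, or translational efficiency, were taken as scaled footprint counts over scaled RNA counts. The median over genes with at least 20 footprints in the column was 1.09, 1.07, 1.03 and 1.04. In the Ngn1-GFP control Cyp2f2 had 12.7 footprints per RNA read, above 99.6% of 11608 genes with at least 20 footprints, Ces1d 7.24 (above 98.5%), Cyp2g1 6.48 (above 98.0%), Cyp1a2 2.89 (above 88.5%), Aldh1a7 2.77 (above 87.6%) and Cyp2a5 2.11 (above 79.9%). Cyp2e1 had 27.5, with 6 genes higher. Cyp2a4, as given above, lay near the bottom of the range. The uncertain split of reads between Cyp2a4 and Cyp2a5 bears on the efficiencies of both genes.

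In Ngn1-GFP cells the efficiency of 2 of 7 members was called lower in the KO and of none higher, where 10.1% of all genes were called lower and 8.04% higher. Cyp1a2 went from 2.89 to 1.04 (log2 ratio -1.47 [-1.93, -1.01]) and Cyp2e1 from 27.5 to 5.89 (-2.22 [-2.88, -1.56]). Cyp2g1 (-0.53 [-0.69, -0.37]), Cyp2f2 (-0.89 [-1.05, -0.73]) and Ces1d (-0.55 [-0.78, -0.31]) were lower by less than 2-fold, and the intervals of Cyp2a5 (-0.15 [-0.35, 0.05]) and Aldh1a7 (-0.83 [-2.09, 0.44]) included no difference. In OMP-GFP cells 1 of 5 members, Cyp2a5, was called lower, at -1.11 [-1.55, -0.67], where 9.08% of all genes were called lower and 7.15% higher. Cyp2f2 lay just under the limit in the other direction, at 0.99 [0.56, 1.43]. Cyp2g1 was lower by less than 2-fold (-0.44 [-0.70, -0.19]), and the intervals of Cyp1a2 (-0.26 [-1.36, 0.84]) and Ces1d (0.21 [-0.42, 0.84]) included no difference. The efficiencies of Cyp2f2 were 12.7, 6.83, 2.40 and 4.78, and those of Cyp2g1 6.48, 4.49, 2.94 and 2.16, so both were highest in the Ngn1-GFP control.

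Cyp2e1 combined few RNA counts with many footprints for them. Its efficiency was 27.5, 5.89, 284 and 36.4, and among genes with at least 20 footprints only 6, 265, 1 and 14 had a higher value. The value of 284 rests on 1 RNA count, and the OMP-GFP pair was not compared.

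**Figure D3:**
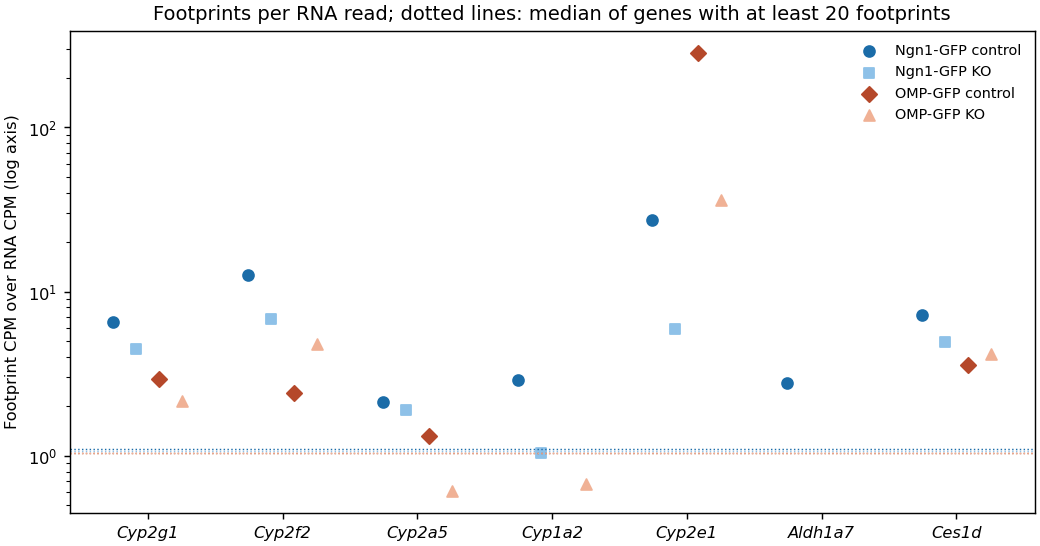
Scaled footprints per scaled RNA read, on a log axis, for each member in each column where it had at least 20 footprints. Dotted lines mark the median of genes with at least 20 footprints in each group, 1.03 to 1.09. Cyp2e1 lies highest in 3 of the 4 groups, and Cyp2f2, Ces1d and Cyp2g1 lie above the median in all 4.

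The makeup of the group differed between columns. Among the summed footprints of the 7 enzymes other than Cyp2a4, Cyp2g1 took 53.7%, 27.1%, 49.3% and 45.6%, so its share was lowest in the Ngn1-GFP KO. Cyp2f2 took 21.4%, 33.9%, 14.8% and 30.5%, a larger share in both KO columns. Ces1d took 5.45%, 15.6%, 8.37% and 10.1%. Cyp2a5 held 15.3%, 15.3%, 16.5% and 8.0%, with the low value in the OMP-GFP KO. Per Cyp2g1 footprint there were 0.399, 1.25, 0.300 and 0.668 footprints of Cyp2f2 and 0.101, 0.577, 0.17 and 0.221 of Ces1d. Members therefore did not keep 1 ratio across columns.

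In RNA the Ngn1-GFP KO was the column that stood apart in makeup. Cyp2g1 took 43.0%, 23.4%, 39.8% and 44.9% of the RNA of the same 7 genes, and Cyp2f2 8.78%, 19.3%, 14.6% and 13.5%. Ces1d took 3.90%, 12.2%, 5.56% and 5.19%. Cyp2a5 took a larger share of RNA (37.5%, 31.1%, 29.9% and 27.9%) than of footprints in every column. The opposite held for Cyp2f2, except that its shares in the OMP-GFP control were 14.8% of footprints and 14.6% of RNA. With Cyp2a4 included, the RNA shares in the Ngn1-GFP control were 37.8% for Cyp2g1 and 33.0% for Cyp2a5. The shares of Cyp2a5 depend on the uncertain split of its reads with Cyp2a4.

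**Figure D4:**
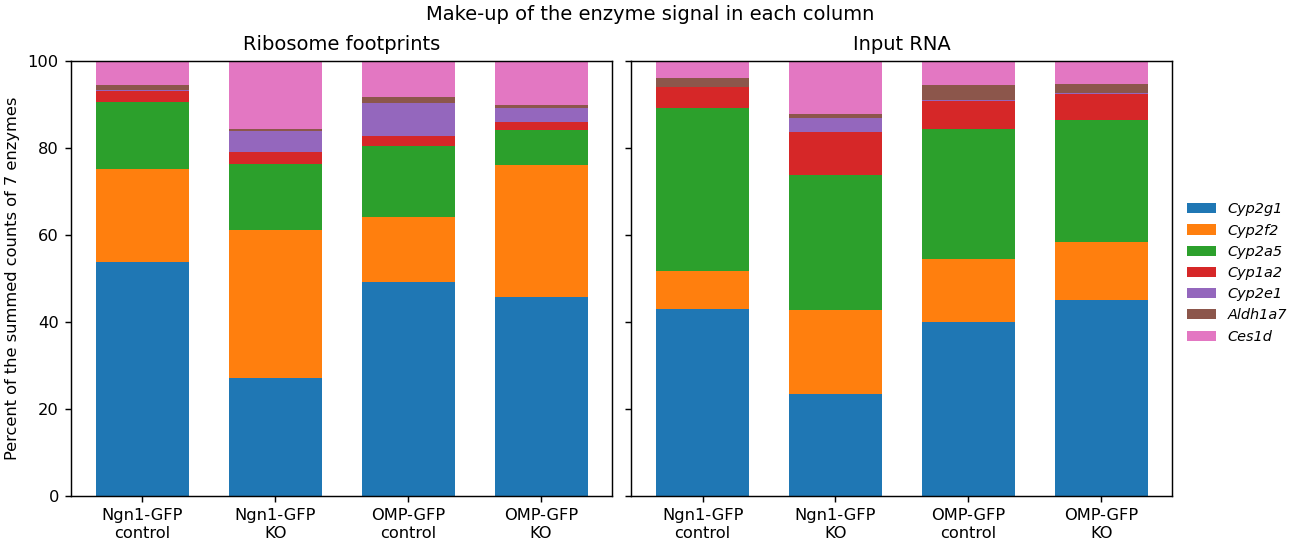
Stacked shares, in percent, of the 7 enzymes other than Cyp2a4 in their summed footprints (left) and RNA (right) in each group. Cyp2g1 holds 27.1% of footprints in the Ngn1-GFP KO and 45.6% to 53.7% in the other groups.

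The 4 members on proximal chromosome 7 lie in a cluster of 13 genes of the Cyp2a, Cyp2b, Cyp2f, Cyp2g, Cyp2s and Cyp2t subfamilies, from Cyp2s1 at 25802469 to the end of Cyp2t4 at 27158564. High counts were limited to a few of them. The 6 genes Cyp2b13, Cyp2b23, Cyp2b9, Cyp2a12, Cyp2b19 and Cyp2a22 had 0 footprints in every column, and Cyp2t4 had 1 in all. Cyp2b10, a phenobarbital-inducible P450, had 56, 8, 1 and 18 footprints and was called lower in the Ngn1-GFP KO (-2.18 [-3.46, -1.11]), and its RNA was called higher in the OMP-GFP KO (2.22). Cyp2s1, at the edge of the cluster, had 156, 73, 139 and 132 footprints and ratios of -0.47 and -0.19. Neighbouring members of the cluster thus ranged from 10521 footprints to none in the same column.

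The bases just before the start of each member with a promoter in the RefSeq table are shown to compare their core promoters. Each window holds 60 bases of GRCm38.p6, read 5′ to 3′ in the direction of the gene, with the motif TATAAA in capitals.
Cyp2f2 (chr7:27119895-27119954, plus strand): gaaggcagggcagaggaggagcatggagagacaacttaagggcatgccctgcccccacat
Cyp2a5 (chr7:26835279-26835338, plus strand): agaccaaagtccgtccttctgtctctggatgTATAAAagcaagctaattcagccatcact
Cyp2a4 (chr7:26307132-26307191, plus strand): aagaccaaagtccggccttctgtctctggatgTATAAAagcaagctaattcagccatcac
Cyp1a2 (chr9:57683656-57683715, minus strand): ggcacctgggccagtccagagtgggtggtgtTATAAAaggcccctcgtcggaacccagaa
Cyp2e1 (chr7:140763759-140763818, plus strand): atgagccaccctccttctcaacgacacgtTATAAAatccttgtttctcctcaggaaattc
Aldh1a7 (chr19:20727557-20727616, minus strand): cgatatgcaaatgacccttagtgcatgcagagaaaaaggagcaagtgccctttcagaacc
Cyp2a5, Cyp2a4, Cyp1a2 and Cyp2e1 hold TATAAA between 31 and 23 bases before the start. Cyp2f2 has no such letters in 250 bases before its start, and Aldh1a7 has them only farther out.

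Searched on both strands of the 250 bases before the start, TATAAA was present in 5 of the 6 members and in 13.0% of 27025 RefSeq promoters. The 5 are not independent, since they include the near-identical windows of Cyp2a4 and Cyp2a5. They also include Aldh1a7, whose match begins at position -244 from the start. CCAAT was present in 2 members, Cyp2e1 and Aldh1a7, and in 34.5% of promoters. TTGGCA, a part of the site of nuclear factor I, a factor family known from olfactory P450 promoters, was present in Cyp2a5, Cyp2e1 and Aldh1a7 and in 12.5% of promoters, and it overlapped the reverse of CCAAT in Cyp2e1 and Aldh1a7. The full site of this family, TTGGC and GCCAA with 5 bases between them, was present in no member and in 0.0407% of promoters. GCGTG, the core bound by the aryl hydrocarbon receptor, was present in no member and in 28.2% of promoters. A match is a description of letters, and the absence of one says only that these letters are not in this window.

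The other genes of xenobiotic metabolism were described through 14 lists holding 286 genes, none of them members. In Ngn1-GFP footprints 32 of 127 genes with enough counts (25.2%) were called lower in the KO and 8 higher, with a median of -0.38. In OMP-GFP footprints 12 of 87 (13.8%) were called higher and 5 lower, with a median of 0.07. The corresponding RNA counts were 37 of 165 lower (22.4%) and 8 higher in Ngn1-GFP cells, and 21 of 118 higher (17.8%) and 7 lower in OMP-GFP cells. Of the 32 genes called lower in Ngn1-GFP footprints, 22 had enough counts in OMP-GFP cells, where 5 were called higher and 3 lower, and 15 had a ratio above 0. Of all genes, 10.8% were called lower and 6.5% higher in Ngn1-GFP footprints, and 8.54% lower and 7.12% higher in OMP-GFP footprints. In RNA these shares were 11.3% and 4.49% in Ngn1-GFP cells and 3.89% and 4.4% in OMP-GFP cells. The counts of every list below are to be read beside them.

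**Figure D5:**
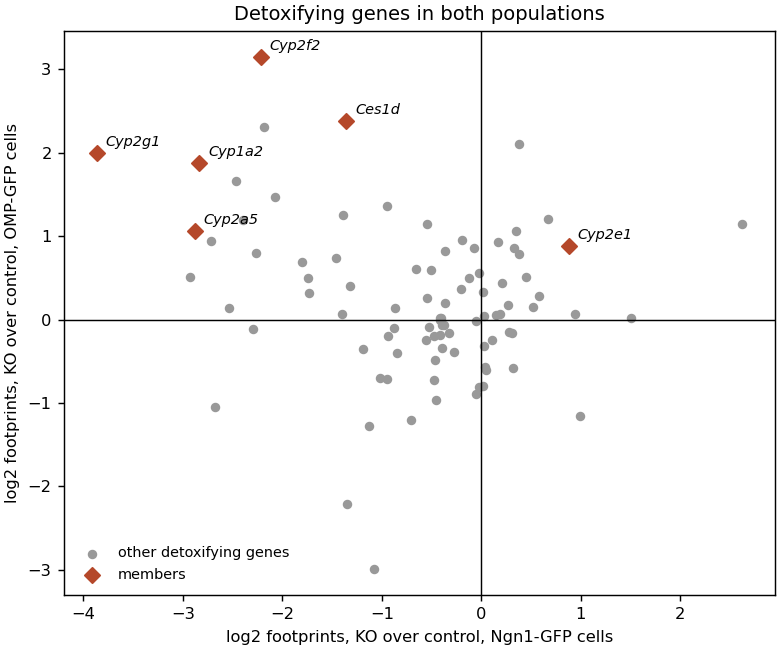
Footprint log2 ratio of KO over control in Ngn1-GFP cells (horizontal) against OMP-GFP cells (vertical) for 85 other detoxifying genes with enough counts in both populations and for the 6 members with enough counts in both. Of the 6 members 5 lie in the upper left, below -1 on the horizontal and above 1 on the vertical axis, and Cyp2e1 lies at 0.88 on both.

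Electron donors and haem synthesis, which every P450 needs, differed less than the P450 members. The members were chosen with their ratios known, so this contrast describes the choice. Of 18 partner genes with enough footprints 2 were called lower in the Ngn1-GFP KO and none higher, and none was called in OMP-GFP cells, with medians of -0.23 and -0.01. Por, the reductase that feeds electrons to microsomal P450 enzymes, had 2930, 1033, 1004 and 1014 footprints and ratios of -0.88 [-0.98, -0.78] and -0.11. Pgrmc1, a haem-binding partner, had ratios of -0.87 and 0.14, and the haem oxygenase Hmox2 0.33 and 0.86.

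Of 70 other P450 genes of families 1 to 4, 45 had 0 footprints and 32 had 0 RNA counts in all 4 columns. Of 12 with enough counts in Ngn1-GFP cells 5 were called lower and 2 higher (median -0.70), and of 8 in OMP-GFP cells 2 were called higher and 1 lower (median 0.30). Cyp2j6, a P450 acting on fatty acids, was lower in the Ngn1-GFP KO at -1.73 [-2.10, -1.39] and stood at 0.32 in OMP-GFP cells. Cyp4v3 had ratios of -0.84 and -0.40. Of 6 P450 genes of other families 1 was called lower in the Ngn1-GFP KO, and none of 3 was called in OMP-GFP cells. Cyp51, of sterol synthesis, had ratios of 0.14 and 0.05, Cyp20a1 -0.07 and 0.86, and the retinoic acid hydroxylase Cyp26b1 -0.45 and -0.97.

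Other oxidising and hydrolysing enzymes held single genes that resembled the members. Of 4 flavin monooxygenases with enough counts 2 were called lower in the Ngn1-GFP KO, among them Fmo6 with 663, 172, 16 and 23 footprints (-1.32 [-1.57, -1.08]). In OMP-GFP cells Fmo6 did not resemble the members. Its footprint ratio there was 0.40 [-0.58, 1.42], and its RNA was lower in the KO, at -0.82 [-1.36, -0.29]. Fmo2 had -0.95 and Fmo5 0.05 in Ngn1-GFP cells. Of 9 aldehyde oxidases, alcohol dehydrogenases and carbonyl reductases 3 were called lower there and none higher. Cbr2, a carbonyl reductase, had 3236, 436, 84 and 159 footprints, with -2.27 [-2.42, -2.12] in Ngn1-GFP cells and 0.80 in OMP-GFP cells, where its RNA was called higher at 1.64. Adh5, found in nearly all cells, had 0.19 and 0.07, and Cbr1 -0.41 and 0.02. Ephx1, the microsomal epoxide hydrolase that acts on P450 products, had 1244, 309, 163 and 422 footprints and was called in both populations, lower in the Ngn1-GFP KO (-1.39 [-1.57, -1.21]) and higher in the OMP-GFP KO (1.25 [0.99, 1.52]). Its relative Ephx4 had 0.01 and 0.33.

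The families of Aldh1a7 and Ces1d did not move as a block. Of 16 other aldehyde dehydrogenases with enough footprints in Ngn1-GFP cells 3 were called lower and 2 higher (median -0.39), and of 11 in OMP-GFP cells 2 were called lower and none higher. Aldh18a1, of proline synthesis, had -0.37 and 0.20, the fatty aldehyde dehydrogenase Aldh3a2 -0.41 and -0.19, and Aldh7a1 -0.02 and 0.56. Of 18 other carboxylesterases 3 had enough footprints in Ngn1-GFP cells, with 1 called lower and 1 higher, and none had enough in OMP-GFP cells. Ces1e had 23, 0, 1 and 5 footprints, Ces1f 14, 13, 0 and 0, and Ces2g 12, 19, 0 and 0. Ces1d thus had more footprints than each of these relatives. In the Ngn1-GFP KO, Ces1e was called lower in footprints (-2.32, with its 0 set to 3 counts) and Ces2g higher (1.29). In RNA 3 of 7 relatives were called higher there and 1 lower. In the OMP-GFP KO 1 of 2 was called higher in RNA, Ces1e at 2.64 [1.23, 4.38].

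Among conjugating enzymes, UDP-glucuronosyltransferases of the olfactory Ugt2a type were closest to the members. Ugt2a1, which conjugates odorants and P450 products, had 6994, 821, 202 and 695 footprints, with ratios of -2.47 [-2.57, -2.36] and 1.66 [1.43, 1.90]. Ugt2a2 had -2.40 and 1.19, but both genes share coding exons and their reads may be counted for each. Of 11 genes of the family with enough counts in Ngn1-GFP cells 2 were called lower and 1 higher, with a median of 0.62, and all 3 in OMP-GFP cells were called higher. The Ngn1-GFP ratio was the same 0.62 for Ugt1a2, Ugt1a5, Ugt1a6a, Ugt1a8, Ugt1a9 and Ugt1a10. These entries may count the same reads, so the median does not describe separate genes. Ugt1a7c had 27, 40, 4 and 1 footprints and a ratio of 1.19 in Ngn1-GFP cells.

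Glutathione transferases were called lower in the Ngn1-GFP KO for 7 of 16 genes and higher for none (median -0.90), and higher in the OMP-GFP KO for 3 of 11 and lower for none (median 0.14). Gstm1 had 2621, 223, 128 and 198 footprints, with -2.93 [-3.14, -2.73] and 0.51. Gstm5 had -0.95 and 1.36 [0.93, 1.81], and Mgst3, a membrane-bound relative, 0.04 and -0.57. Sulfotransferases differed by gene, with 2 of 8 called lower in the Ngn1-GFP KO and 1 of 4 called higher in the OMP-GFP KO. Sult1c1 had 1772, 175, 66 and 138 footprints (-2.72 [-2.95, -2.49] and 0.94), while the abundant Sult1d1 had 9691, 8155, 13874 and 25948 (0.37 and 0.78) and Sult4a1 0.11 and -0.25. The low level of Gstm1 and Sult1c1 in OMP-GFP controls thus resembled the members, and Sult1d1 had most footprints in OMP-GFP cells.

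Methyltransferases and acetyltransferases were called higher in the Ngn1-GFP KO for 2 of 4 genes and lower for none. Inmt, which methylates indoles, had 135, 288, 10 and 4 footprints and a ratio of 1.72 [1.42, 2.02]. As3mt had ratios of 0.99 and -1.16. Of 4 efflux pumps with enough counts 1 was called lower in the Ngn1-GFP KO and none was called in the OMP-GFP KO, with Abcc1 at 0.28 and -0.15, Abcc4 at -0.13 and 0.50 and Abcc5 at 0.45 and 0.51.

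Regulators of detoxifying genes were called lower in Ngn1-GFP KO footprints for 2 of 14 genes and higher for none, and in RNA for none of 17 in either direction. In OMP-GFP footprints 1 of 12 was called higher and 1 lower. Nfe2l2, which encodes the oxidative stress factor NRF2, had 1011, 833, 1175 and 2667 footprints, with 0.34 and 1.06 [0.96, 1.16]. Nfix, of the nuclear factor I family, had -0.39 and -0.34, and Cebpb -0.39 and -0.06.

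The genes whose profile was most like the members were found by distance to the members' mean profile over the 4 footprint and 4 RNA columns, among 10760 other genes. The closest were Gm43638 (distance 0.465) and Ugt2a1 (0.504). Gm43638, an unnamed gene model, had 7293, 869, 214 and 746 footprints, nearly those of Ugt2a1, and the 2 may share reads. They were followed by Ugt2a2 (0.644), the calcium release channel gene Itpr2 (0.657), the aldehyde oxidase gene Aox2 (0.718), the transcription factor gene Elf5 (0.736), the endocytic receptor gene Lrp2 (0.744) and the carboxypeptidase gene Cpm (0.817). Aox2 had 722, 111, 21 and 63 footprints, Elf5 502, 96, 15 and 74, Lrp2 380, 39, 13 and 27, Cpm 777, 59, 27 and 60, and Itpr2 80, 6, 2 and 9. Of the members Cyp1a2 lay nearest to the mean profile (0.636) and Cyp2e1 farthest (3.99), with Ces1d at 1.08, Cyp2f2 at 1.19, Cyp2a5 at 1.31, Cyp2g1 at 1.75 and Aldh1a7 at 2.17. Likeness over 8 columns is a description of those columns.

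Markers of sustentacular cells that are not detoxifying enzymes were set beside the members. Of 13 such genes 10 were called lower in Ngn1-GFP KO footprints and none higher (median -1.76), and 3 of 8 with enough counts were called higher in OMP-GFP KO footprints and none lower (median 0.93). Their summed footprints were 1843, 625, 408 and 443 CPM, and their RNA 780, 429.6, 246 and 378 CPM. Sec14l3, a lipid-transfer protein of these cells, had 3958, 197, 127 and 222 footprints (-3.71 and 0.69). Cldn3, a tight junction protein, had 1737, 1129, 1145 and 1120 (0.00 and -0.15). Like Cyp2g1, Sec14l3 was thus called lower in the Ngn1-GFP KO, and Cldn3 was level.

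Markers of Bowman's and nasal glands were set beside the members too. In footprints 4 of 15 genes were called higher in the Ngn1-GFP KO and 2 lower (median 0.43), while 10 of 15 were called higher in the OMP-GFP KO and none lower (median 2.07). In RNA 4 of 16 were called higher and 5 lower in the Ngn1-GFP KO (median -0.20), and 13 of 18 higher and 1 lower in the OMP-GFP KO (median 2.55). Their sums were 1387, 1629, 229.8 and 760.5 CPM in footprints and 195.1, 283, 47.5 and 159 CPM in RNA. Bpifa1 and Bpifb4 encode secreted airway proteins. Bpifa1 had 3739, 1425, 394 and 394 footprints (-0.77 [-0.86, -0.68] and -0.12 [-0.32, 0.09]). For its RNA the Ngn1-GFP pair stood at 0.14 and the OMP-GFP pair at -0.53. Bpifb4 had 509, 1118, 69 and 178 footprints (1.76 and 1.25). The gland sum was thus higher in the KO column of both populations, in footprints and in RNA. Bpifa1 footprints were higher in neither KO column.

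Markers of vessels and mesenchyme summed to 1247, 1517, 162 and 192 footprint CPM, those of microvillar and tuft cells to 85.9, 62.5, 15.9 and 11.6, those of ensheathing glia to 47.5, 57.5, 6.76 and 11.1 and those of immune cells to 35.9, 17.5, 23.5 and 27.0. In Ngn1-GFP footprints 1 of 6 vessel and mesenchyme genes was called higher in the KO and 1 lower, 1 of 5 microvillar and tuft genes higher and 1 lower, 2 of 4 glial genes higher and none lower, and 1 of 6 immune genes higher and 3 lower (median -1.46). In OMP-GFP footprints 3 of 6 vessel and mesenchyme genes were called higher and 1 lower, 1 of 2 glial genes higher and none lower, and 1 of 5 immune genes higher and 1 lower. In RNA none of 6 immune genes was called in the Ngn1-GFP KO. Of the microvillar markers Chat had 0 footprints in every column, Atp6v0a4 had 178, 2, 1 and 0, and Ascl3 had 88, 57, 14 and 0. Respiratory epithelium markers summed to 399, 359.9, 398 and 482 CPM, with none of 5 called in the Ngn1-GFP KO and 1 called lower in the OMP-GFP KO. Horizontal basal cell markers (139.1, 139.5, 2.35 and 0.811 CPM) and precursor markers (599, 661, 62.3 and 89.0 CPM) had near sums within the Ngn1-GFP pair, with 1 of 6 and 0 of 6 genes called lower in the KO and none higher. Immature neuron markers (9213, 11179, 8736 and 8931 CPM) and mature neuron markers (35257, 40352, 61689 and 71740 CPM) had no gene called in the Ngn1-GFP KO, and 1 immature neuron marker was called lower in the OMP-GFP KO. The part of any of these cell types in the members' differences was not tested.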

How the data were processed

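Ribosome footprints and input RNA of sorted cells were analysed from 1 table. The deposited values are, per the file headers, footprint counts and RNA counts over coding sequences, the coding length in bases, footprint RPKM, RNA TPM and a translational efficiency ratio made by the authors. FastQC, cutadapt, STAR and the mm10 build are named, without versions, in the submitters' processing notes. The way 2 libraries became 1 column and any removal of duplicates were not given in the sources used here. A stranded total-RNA kit for small amounts was used, per the labels' protocols.

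The 8 genes, the lists and the rules were chosen with earlier results of these data known. Counts were scaled by TMM (edgeR 4.0.16, R 4.3.3) over genes kept by filterByExpr (minimum count 10, minimum total 15), 13479 in footprints and 16388 in RNA. Each column had 1 value per gene, so no test across replicates was made. Ratios have exact conditional binomial 95% intervals (Python 3.11.15, numpy 2.4.6, pandas 2.3.3, scipy 1.17.1, plots with matplotlib 3.10.9), and efficiency has an approximate interval. A count of 0 was set to 3 counts per column in a ratio. Calls need 2-fold, an interval without 1 and 20 counts in the pair. CPM denotes TMM-scaled counts. Levels per length are the authors' RPKM and TPM. Comparisons of genes by counts, including the shares and the footprints per Cyp2g1 footprint, are not corrected for length.

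Named besides the members are up to 3 genes of each detoxifying list and up to 2 of each cell type list with most footprints, those of a cell type list listed at 0 where 5 or fewer are, and the 8 genes nearest in profile (centred log2 of CPM plus 0.5, at least 5 CPM in footprints and 1 CPM in RNA). Other genes of the chromosome 7 cluster were named after their values were seen. A gene that this rule would name is not reported here. Ratios were tested on simulated data. Alternatives were library size alone, DESeq2 1.42.0 size factors, TMM without receptor, mitochondrial and ribosomal protein genes, no filter beyond 1 count, 50 counts in the pair, 4-fold, the authors' RPKM and TPM, and, added after seeing the data, the KO columns for the population comparison and the sum of Cyp2a4 and Cyp2a5.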

Additional observations from a re-analysis of the deposited data

Results flagged for a closer look

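The difference between KO and control went opposite ways in the 2 populations for 5 enzymes in footprints and 5 in RNA, each called lower in the Ngn1-GFP KO and higher in the OMP-GFP KO. With 1 column per group this difference between populations was not tested. In footprints the OMP-GFP log2 ratio minus the Ngn1-GFP log2 ratio was 5.86 for Cyp2g1, 5.37 for Cyp2f2, 4.72 for Cyp1a2, 3.94 for Cyp2a5 and 3.74 for Ces1d. In RNA it was 5.78 for Cyp2g1, 5.38 for Aldh1a7, 4.90 for Cyp2a5, 3.51 for Cyp1a2 and 3.48 for Cyp2f2. Cyp2g1, Cyp2f2, Cyp2a5 and Cyp1a2 were in both groups of 5.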

How the results depend on the processing

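Of 52 counts of called members under an alternative, 46 stayed within 1.5 times the reported count. In OMP-GFP footprints the 5 called members became 2 at 4-fold. Between the populations the 6 members called in footprints became 1, and the 8 in RNA became 3, when the KO columns took the place of the controls. That change restates the KO ratios given above. For efficiency, the 2 called members of the Ngn1-GFP pair became 1 at 4-fold, and the 1 of the OMP-GFP pair became 0 at 4-fold and 2 with DESeq2 size factors, where Cyp2f2 reached the limit. The 215 alternative values of 54 member ratios shifted by -0.22 to 0.24, too little to change the direction of a called ratio. Of these, 8 moved beyond their interval, for example the RNA ratio of Cyp2g1 in Ngn1-GFP cells, -3.10 by the authors' TPM. Library size alone moved the median of all genes for OMP-GFP over Ngn1-GFP control footprints from -0.02 to -0.23 and the share of higher among called genes from 25.95% to 15.04%, and the median efficiency ratio of the Ngn1-GFP pair from -0.06 to -0.18. No paired analysis was possible because each group has 1 column per assay, and for the same reason no library could be left out. Depth limits Aldh1a7 and Cyp1a2 footprints in OMP-GFP cells, Cyp2e1 RNA and Cyp2a4 footprints most.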
